A study of Homo sapiens with 6 samples.

Results

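The comparison described here sets LoVo cells carrying hairpin shLGR5-1 against LoVo cells carrying the control construct shCTL, gene by gene and family by family. LoVo is an established human colorectal adenocarcinoma line. Its members are 4 of the series' 6 arrays, 2 titled with shLGR5-1 and 2 with shCTL, and the 11524 genes that had a probe brighter than the noise threshold on both arrays of either group, out of 20039 genes with a probe assigned to them alone. The cells of all groups had been infected with lentivirus and were grown with puromycin in serum-containing RPMI medium. The shLGR5-1 cells carried a short hairpin RNA aimed at LGR5 mRNA. The shCTL cells carried pLKO.1, which the labels call a non-targeting shRNA control. The remaining 2 arrays, of a second hairpin line called shLGR5-2, enter where the hairpins are compared. The labels do not say whether a line is 1 clone or a pool of infected cells, or whether replicates were grown apart, so the p-values reflect no more than the spread between these arrays, and that spread may be technical.

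A short hairpin RNA is cut by the cell into a small interfering RNA that guides the Argonaute protein to matching mRNAs and lowers their levels. LGR5 binds R-spondins, which strengthen Wnt signalling by keeping Frizzled receptors at the cell surface, and in the intestine it marks the dividing stem cells at the crypt base. The question here was which families and functions moved in the shLGR5-1 line.

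Values are the authors' normalized array intensities on a linear scale, where a probe was taken as brighter than noise above a threshold of 1.65 times the noise SD of 10.0. Changes are differences of log2(intensity + 16) between shLGR5-1 and shCTL, with their standard error (SE, n = 2 arrays in each group), and adjusted p-values are those of limma with Benjamini-Hochberg adjustment over all genes tested. A gene was called at an adjusted p below 0.05. The offset understates the change of dim genes. Where neither array of a group exceeded the threshold, the fold is given as at least the stated size. Such a gene was tested only because the other group exceeded the threshold, so its direction was fixed by the filter. Genes of this kind numbered 1069 for shLGR5-1 and 413 for shCTL, and they are among the genes counted below. In bulk samples, fewer cells of a type and less RNA per cell cannot be told apart.

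LGR5 itself had intensities of 44.4 and 49.2 in shCTL and of -1.1 and 7.0 in shLGR5-1. The control values were low and both shLGR5-1 values were below the threshold. The level was at least 2.83-fold lower with the hairpin (log2 change -1.71 ± 0.22, adjusted p = 0.00143).

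The 2 shCTL arrays correlated at r = 0.9914 across genes and the 2 shLGR5-1 arrays at 0.976, while the correlations between the groups lay between 0.7347 and 0.7714. Between 20596 and 20659 of 47323 probes per array exceeded the threshold. Of the 11 colon epithelium markers, all were above it on all 4 arrays. Their levels were not stable, since 5 were called higher and 6 lower in shLGR5-1 (median log2 change -0.53). CDH17 fell from 5745.1 and 6229.7 to 330.7 and 393.3, and CDX2 rose from 2413.8 and 2883.5 to 4933.3 and 4928.7. Markers above it on all 4 arrays numbered 1 of 6 for fibroblasts, 0 of 5 for leukocytes, 0 of 5 for endothelium and 1 of 5 for neural cells; the last was MBP, which read 1694.0 and 2002.5 in shCTL and 174.1 and 231.5 in shLGR5-1. The fibroblast list summed to 27.7 and 75.6 in shCTL and 61.9 and 92.0 in shLGR5-1, and the endothelial list to 20.3 and 6.6 and to 49.6 and 16.2. The leukocyte list's sum was 24.4 and 42.1 in shCTL and 143.3 and 170.5 in shLGR5-1, most of it from CD14, and its part in other results was not tested.

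Changes covered most of the measured transcriptome. The values had been quantile-normalized, which gives every array the same distribution. The counts and medians thus describe levels relative to the other genes on an array, not absolute amounts of RNA. Of the genes tested, 8718 were called (75.7%), 4918 higher (42.7%) and 3800 lower (33.0%) in shLGR5-1. By at least 2-fold, 2867 were higher and 3147 lower, and the median log2 change over all genes was 0.31 with quartiles of -1.22 and 1.02. A larger share of the lower than of the higher calls thus passed 2-fold. The arrays of the 2 groups did not overlap for 10316 genes (89.5%). Since so many genes passed the test, the counts in each family below are to be read against these shares and against the median of 0.31.

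The direction of change followed the length of the gene on the genome. Spearman's correlation between the log2 change and genomic span was -0.332 across 11517 genes, which are not independent replicates. The shortest decile of genes, with a median span of 2.07 kb, had a median change of 0.74, and 56.1% of them were called higher against 10.7% lower. The longest decile, with a median of 217 kb, had a median of -0.69, with 23.7% higher and 49.3% lower. Genes called higher had a median span of 16.9 kb and genes called lower 47.9 kb. Under shLGR5-2 the same correlation was 0.005, a different order of genes measured against the same control arrays. Family medians are therefore given with a second value, that relative to the median of genes in the same decile of genomic span, in short "relative to span". Calls of single genes relative to span come from arrays centred on their decile medians before the fit. A further set of medians rests on the members above the threshold on all 4 arrays, meaning those with at least 1 such probe. By construction it leaves out members whose probes all fell into noise. The change used is still that of the gene's brightest probe, which may be another one. Refitted on the passing probes, medians could differ, as 0.38 in place of 0.50 for the CHD, SMARC and INO80 remodellers. This set is given for some of the families that it changed.

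**Figure D1:**
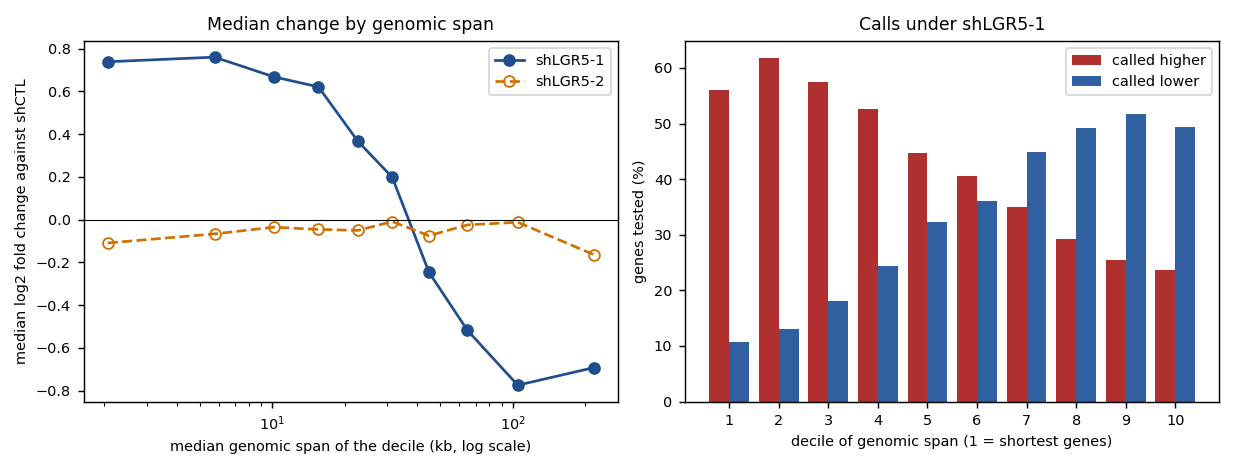
Left, the median log2 change against shCTL in each decile of genomic span, for shLGR5-1 (filled) and shLGR5-2 (open), with span in kb on a log axis; the shLGR5-1 medians run from 0.74 in the shortest decile to -0.69 in the longest, and the shLGR5-2 medians stay between -0.16 and -0.01. Right, the percentage of genes tested that were called higher or lower under shLGR5-1 in each decile.

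The median change also differed by chromosome. It was lowest on chromosomes 13 (-0.94), 4 (-0.93) and 18 (-0.92) and highest on chromosomes 19 (0.92), 22 (0.79), 16 (0.78) and 17 (0.77). On chromosome 13, 56.2% of 203 genes were called lower, and on chromosome 19, 67.4% of 748 genes were called higher. Relative to span the medians of chromosomes 13 and 19 were -0.92 and 0.39, so that part of the difference remained among genes of like length. The shLGR5-2 medians of these chromosomes were -0.07 and 0.06.

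**Figure D2:**
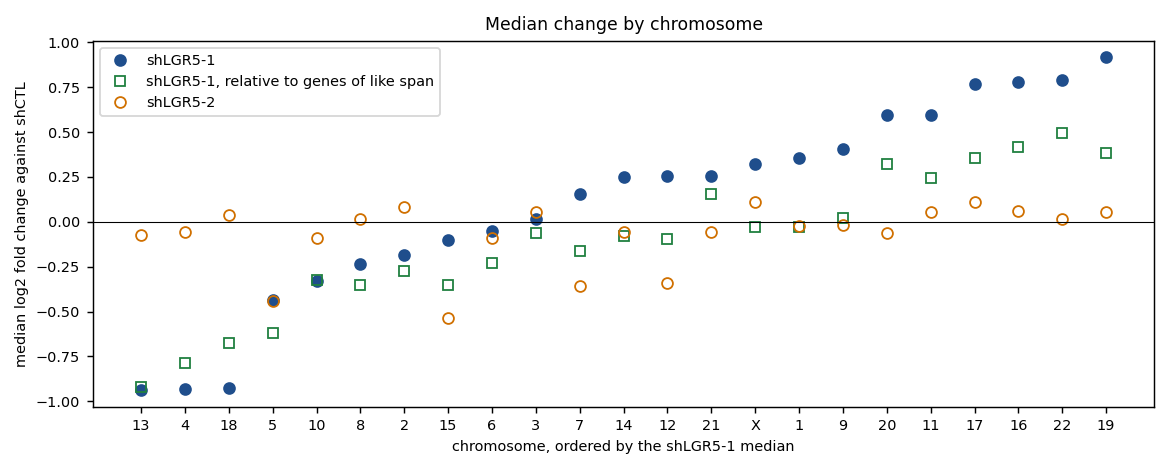
Median log2 change against shCTL of the genes on each chromosome, ordered by the shLGR5-1 median (filled circles), with the shLGR5-1 median relative to genes of like genomic span (squares) and the shLGR5-2 median (open circles). The shLGR5-1 medians run from -0.94 on chromosome 13 to 0.92 on chromosome 19.

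Families were wide, and most held members called in both directions. Of the 84 families with at least 5 measured members, 81 had calls both ways, 45 had a median above 0 and 36 had a median above that of all genes. In 65 of the 69 families with 3 or more calls each way, the members called lower had a longer median span than those called higher. Across the 84 families, the median change and the median span had a Spearman correlation of -0.458, given as a description.

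**Figure D3:**
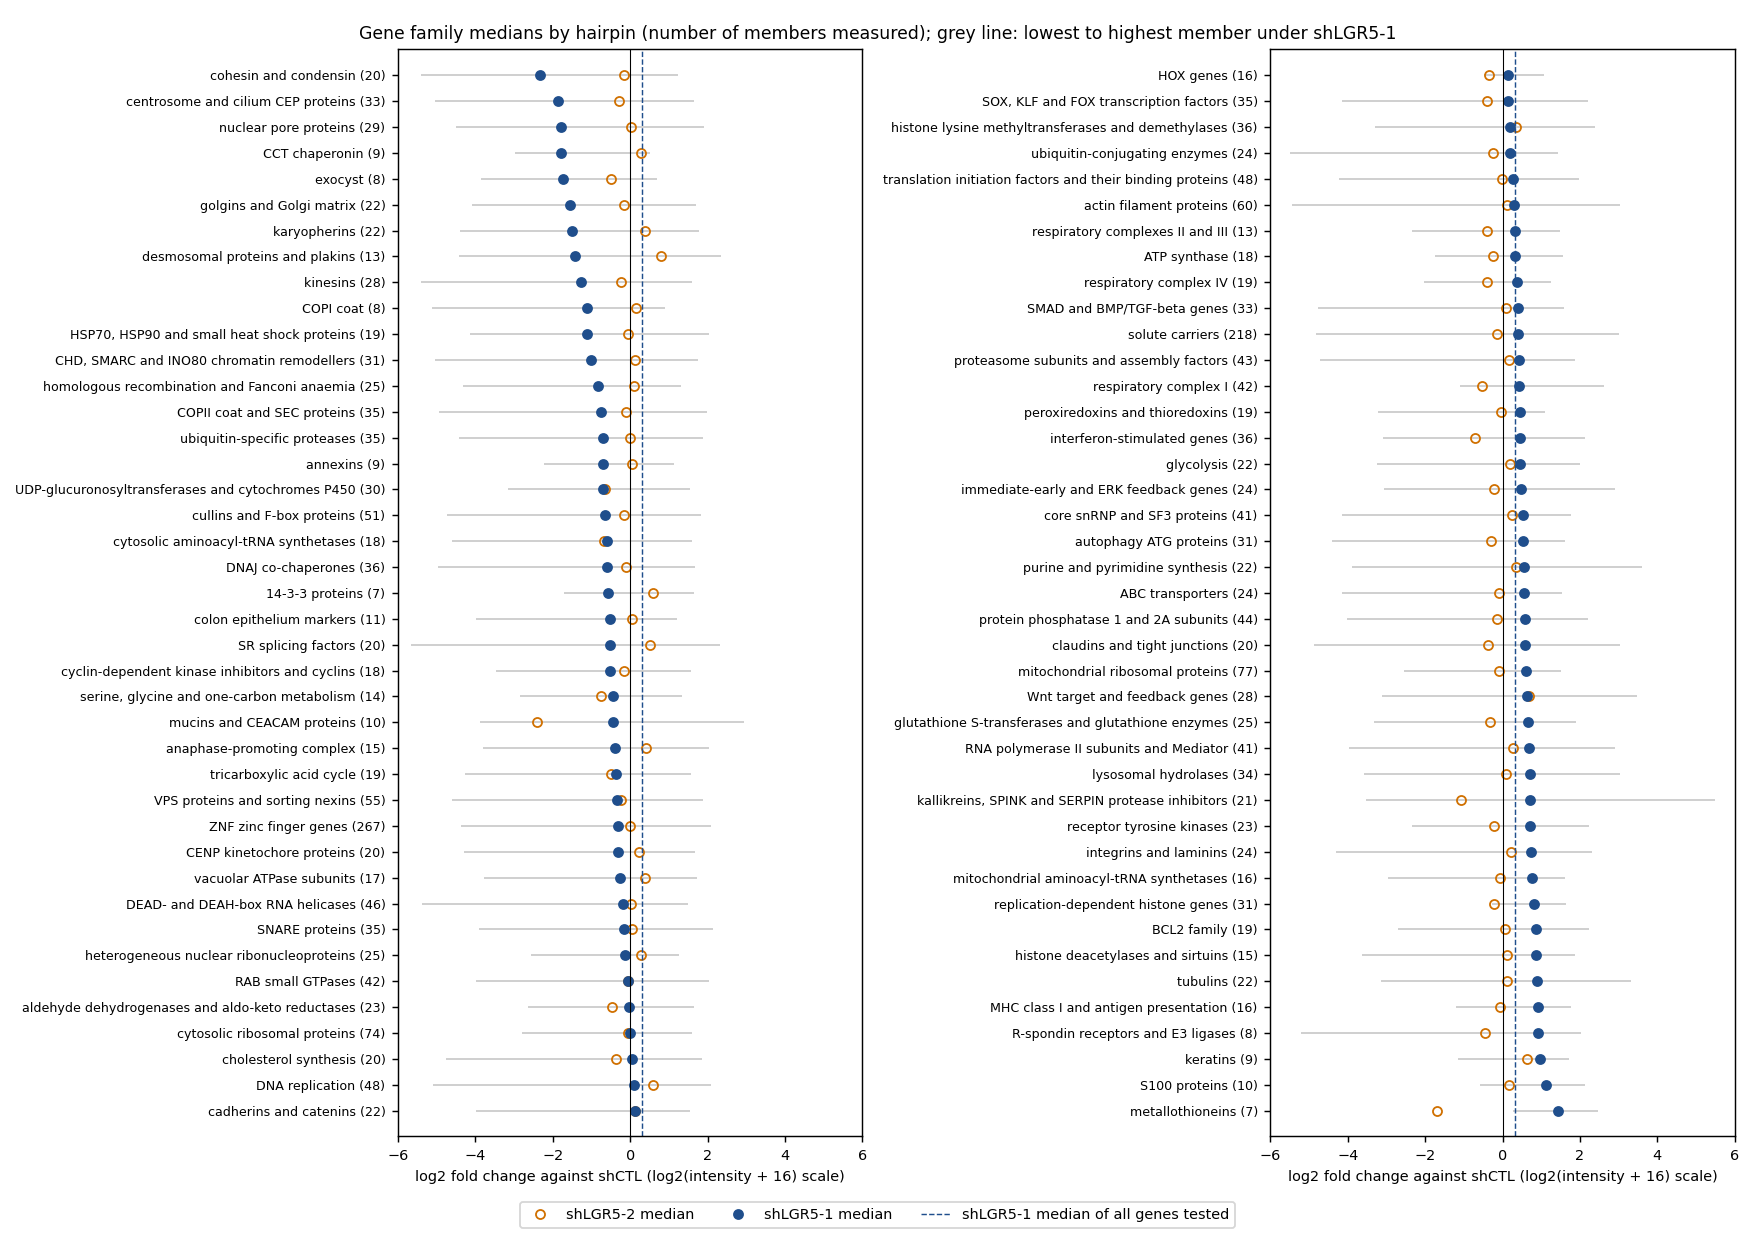
Median log2 change against shCTL of the gene families with at least 5 measured members, apart from 2 that are not shown, under shLGR5-1 (filled) and shLGR5-2 (open); the grey line spans the lowest to the highest member under shLGR5-1 and the dashed line is the shLGR5-1 median of all genes, 0.31. The shLGR5-1 medians run from -2.33 for cohesin and condensin to 1.42 for metallothioneins.

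Cohesin with condensin and the CEP group had the lowest family medians. Cohesin, which holds sister chromatids together, and condensin, which compacts them, had 16 of 20 measured members called lower and 3 higher, with a median of -2.33 (-1.97 relative to span). The CEP group of centrosome and cilium proteins had 23 of 33 lower and 6 higher (median -1.87, -1.35 relative to span). Kinesins, motors that move along microtubules, had 16 of 28 lower and 6 higher (median -1.27, -0.94 relative to span). Among members above the threshold on all 4 arrays the medians were -1.48 for 9 cohesin and condensin genes, -0.56 for 15 CEP genes and -0.11 for 18 kinesins. Against shLGR5-2 directly, 75.0% of all genes differed, with 4888 of 11524 higher and 3754 lower in shLGR5-1. Of these families, 16 cohesin and condensin members and 24 CEP members were lower in shLGR5-1. Counts against shLGR5-2 in the families below are to be read beside these totals. Genes were chosen by their shCTL and shLGR5-1 values, so those above the threshold only in shLGR5-2 are missing from them.

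SMC3, a ring subunit of cohesin, read 928.3 and 1182.6 in shCTL, below the threshold on both arrays in shLGR5-1, and 903.8 and 975.0 in shLGR5-2. The shLGR5-1 level was at least 63.5-fold below control (adjusted p = 1.24e-04), and the shLGR5-2 values overlapped those of shCTL. SMC3 passed the filter through its shCTL values alone, so it could only be lower. STAG1, which binds the cohesin ring, fell at least 38.0-fold from 592.0 and 663.6 to below 0 on both arrays. Condensin subunits moved both ways: NCAPH2 rose from 242.3 and 276.2 to 653.8 and 597.9 (log2 change 1.22 ± 0.13) and NCAPD2 from 1627.5 and 2006.3 to 2875.5 and 2883.5 (0.67 ± 0.14), while SMC4 fell from 2076.2 and 2048.8 to 16.4 and 90.7. The 3 SMC4 probes moved by between -5.14 and -0.83.

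PCM1, a scaffold of centriolar satellites, fell at least 43.5-fold, from 661.1 and 777.8 to below the threshold on both arrays. CEP55, which acts in the final separation of daughter cells, fell from 2291.1 and 2399.5 to 141.4 and 251.5 (log2 change -3.52 ± 0.27, adjusted p = 3.39e-04). Both genes kept the groups far apart, since no shLGR5-1 value came near a control value. KIF11, the motor that separates spindle poles, went from 568.6 and 580.9 to below 0, at least 34.8-fold lower, and KIF5B, a motor that carries cargo, from 615.2 and 718.5 to below 0, at least 40.3-fold lower. KIF1C, another cargo motor, rose from 90.5 and 97.7 to 326.6 and 301.3.

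Other division families were nearer to the whole set. DNA replication genes had 20 higher and 20 lower of 48 (median 0.10, -0.18 relative to span), kinetochore CENP proteins 6 higher and 9 lower of 20 (-0.32, -0.83 relative to span), and the anaphase-promoting complex 3 higher and 7 lower of 15 (-0.39, -0.30 relative to span). Homologous recombination and Fanconi anaemia genes had 7 higher and 14 lower of 25, with a median of -0.84 that became -0.15 relative to span. Among members above the threshold on all 4 arrays the CENP and recombination medians turned to 0.14 and 0.04. TOP2A, the topoisomerase that untangles replicated DNA, fell from 4063.3 and 4122.4 to 69.9 and 153.6 (log2 change -5.09 ± 0.32, adjusted p = 2.17e-04), and in shLGR5-2 it read 3976.5 and 4002.1. MSH6, a sensor of DNA mismatches, fell under both hairpins: from 2082.0 and 2263.7 to 247.5 and 308.2 in shLGR5-1 and to 415.3 and 344.3 in shLGR5-2.

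Tubulins, the building blocks of microtubules and their nucleating complex, went the other way, with 14 of 22 higher and 4 lower (median 0.88, 0.32 relative to span). TUBB6, a beta-tubulin, rose from 51.6 and 62.9 to 797.2 and 639.3 (log2 change 3.32 ± 0.21, adjusted p = 2.13e-04). TUBB3, a beta-tubulin best known from neurons, rose from 336.0 and 310.8 to 1259.9 and 1366.3. Each was higher still in shLGR5-2, at 1176.3 and 1605.7 for TUBB6 and 2331.9 and 2590.6 for TUBB3. TUBA1B, a main alpha-tubulin, read 23116.4 and 22528.0 in shCTL and 22502.2 and 19339.8 in shLGR5-1 and was not called.

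In the nucleus, the pore and the import and export machinery had low medians. Nuclear pore proteins had 19 of 29 lower and 9 higher (median -1.78, -1.36 relative to span, or -1.33 with dim genes set at their bounds). Karyopherins, the carriers that take proteins and RNA through the pore, had 13 of 22 lower and 6 higher (median -1.51, -1.58 relative to span), and 17 of them were lower than in shLGR5-2. The median of the 17 karyopherins above the threshold on all 4 arrays was -0.39.

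NUP107 and NUP160, neighbours in the pore's outer ring, fell together. NUP107 went from 1724.5 and 1769.6 to 52.2 and 148.5 (log2 change -4.06 ± 0.42, adjusted p = 7.61e-04), and NUP160 from 850.4 and 917.0 to 32.3 and 67.2 (-3.83 ± 0.27, adjusted p = 2.73e-04). In shLGR5-2, NUP160 read 1489.6 and 1435.5. TPR, a filament of the nuclear basket, fell at least 29.4-fold, from 419.7 and 559.1 to 8.3 and 4.4. Against these, the membrane nucleoporin NUP210 rose from 174.8 and 176.7 to 687.8 and 710.9 (1.90 ± 0.10), and NUP62, of the central channel, from 3929.4 and 3758.9 to 5948.2 and 5697.6 (0.60 ± 0.12); relative to span NUP62 was not called (0.24).

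Among the carriers, CSE1L, which returns importin alpha to the cytoplasm, fell from 4023.5 and 4085.7 to 103.0 and 297.7 (log2 change -4.40 ± 0.45, adjusted p = 7.28e-04). KPNB1, importin beta, fell from 5688.8 and 5353.1 to 1504.4 and 1414.7 (-1.91 ± 0.12), whereas shLGR5-2 cells held 10626.1 and 9412.5. The hairpins thus lay on opposite sides of the control for KPNB1. IPO4, an importin for histones and ribosomal proteins, rose from 456.5 and 375.9 to 1464.1 and 1445.1 (1.77 ± 0.13).

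The transcription and splicing machinery moved in both directions. RNA polymerase II subunits and Mediator had 24 of 41 higher and 11 lower, with a median of 0.69 that was 0.02 relative to span. POLR2A, the largest catalytic subunit, rose from 594.3 and 636.6 to 4218.2 and 4134.4 (log2 change 2.73 ± 0.16, adjusted p = 1.83e-04), and the small subunit POLR2L from 110.5 and 90.0 to 846.5 and 870.1 (2.92 ± 0.13). POLR2B, the subunit that forms the active site together with POLR2A, fell from 680.1 and 902.5 to 16.6 and 62.7 (-3.98 ± 0.43, adjusted p = 8.56e-04). POLR2A and POLR2L also rose under shLGR5-2, at 3101.7 and 2386.6 and at 547.3 and 580.0, while POLR2B read 883.2 and 906.6 there and was not called.

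SR splicing factors had 11 of 20 lower and 6 higher (median -0.52, -1.12 relative to span) and heterogeneous nuclear ribonucleoproteins 12 of 25 lower and 6 higher (-0.13, -0.69 relative to span). Core snRNP and SF3 proteins, the body of the spliceosome, had 22 of 41 higher and 11 lower (0.52, 0.02 relative to span), and DEAD- and DEAH-box helicases 18 of 46 higher and 22 lower (-0.18, -0.59 relative to span). The helicase median turned to 0.24 among members above the threshold on all 4 arrays. SRSF7, an SR factor, fell from 1086.0 and 1060.9 to 65.6 and 165.9 (log2 change -3.16 ± 0.38). HNRNPA2B1, an abundant RNA-binding protein, fell from 14709.8 and 14740.6 to 5273.9 and 4738.5 (-1.56 ± 0.14), and its 4 probes all moved down, by between -3.24 and -1.56.

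Among chromatin families, CHD, SMARC and INO80 remodellers had 16 of 31 lower and 9 higher (median -0.63 with dim genes at their bounds, -0.31 relative to span). The remodellers' median turned to 0.50 among members above the threshold on all 4 arrays and to 0.30 among bright genes, those with a mean intensity above 100 over the 4 arrays, a subset chosen after seeing the data. Histone methyltransferases and demethylases had 13 of 36 higher and 10 lower (0.20, 0.37 relative to span), and histone deacetylases with sirtuins 9 of 15 higher and 3 lower (0.87, 0.61 relative to span). KMT2B, a methyltransferase of histone H3, rose from 59.7 and 51.6 to 378.5 and 344.4 (log2 change 2.40 ± 0.12). The deacetylase HDAC2 fell from 4240.7 and 4011.0 to 491.6 and 753.2 (-2.73 ± 0.22). SMARCC1, a core SWI/SNF subunit, fell from 1631.8 and 1808.2 to 843.5 and 854.9, and ARID1A, a subunit of the same complex, rose from 639.1 and 590.1 to 1443.2 and 1447.5.

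Replication-dependent histone genes, intronless genes expressed in S phase, had 17 of 31 called higher and 0 lower (median 0.81). At an unadjusted p below 0.05 limma gave 18 higher and 0 lower. Relative to span the family's median was 0.07. H1-2, a linker histone, rose from 358.4 and 358.1 to 1033.8 and 922.8 (log2 change 1.41 ± 0.15). The 267 measured ZNF zinc finger genes, the largest family, had 115 lower and 77 higher (median -0.32, -0.55 relative to span), and their median turned to 0.40 among the 145 above the threshold on all 4 arrays and to 0.10 among bright genes. ZNF770 fell from 1096.8 and 1213.3 to 64.2 and 23.4 (-4.38 ± 0.34), and ZNF503 rose from 110.5 and 106.4 to 579.5 and 459.7 (2.10 ± 0.14).

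Families of protein synthesis are given by compartment. Cytosolic ribosomal proteins had few calls: 51 of 74 were not called, 13 were higher and 10 lower, and the median was -0.01. Because they are short genes, that median stood at -0.74 relative to span. RPL3, of the large subunit, read 27080.4 and 25927.1 in shCTL and 23479.8 and 25537.7 in shLGR5-1. The exceptions were large: RPL22 fell from 9680.8 and 9649.1 to 1503.7 and 1647.8 (log2 change -2.61 ± 0.11, adjusted p = 1.17e-04) and RPL29 rose from 1877.7 and 1987.4 to 5964.2 and 5759.3 (1.59 ± 0.11, adjusted p = 2.54e-04). Ribosomal proteins have many processed pseudogenes, and their probes may share signal with them.

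Mitochondrial ribosomal proteins had 45 of 77 higher and 20 lower (median 0.61), and their median relative to span was 0.02. MRPL17 rose from 1766.1 and 1850.6 to 5286.8 and 5073.6, and MRPS10 fell from 2038.9 and 1958.2 to 332.1 and 321.9. Of the enzymes that load amino acids onto tRNA, 10 of 18 cytosolic synthetases were lower and 3 higher (median -0.61, -0.71 relative to span), and 10 of 16 mitochondrial synthetases were higher and 4 lower (median 0.75, 0.24 relative to span). EPRS1 and LARS1, which load glutamate and proline and, respectively, leucine, fell from 4988.1 and 5324.0 to 145.1 and 262.1 (log2 change -4.61 ± 0.27) and from 1985.4 and 2244.5 to 83.9 and 120.0 (-4.19 ± 0.19). FARSA, which loads phenylalanine, rose from 171.7 and 253.5 to 651.5 and 682.6. Under shLGR5-2 the cytosolic median was -0.67, close to that under shLGR5-1, and the mitochondrial median was -0.08.

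Translation initiation factors had 21 higher and 20 lower of 48 (median 0.28, -0.23 relative to span). EIF3A, the scaffold of the initiation factor eIF3, fell from 2945.4 and 2663.5 to 175.5 and 180.5 (log2 change -3.86 ± 0.11, adjusted p = 8.45e-05). EIF5A, which helps ribosomes through stalling sequences, rose from 4014.8 and 3444.7 to 9510.1 and 9943.1 (1.38 ± 0.14). In shLGR5-2 EIF5A read 2661.5 and 3127.9, below every shLGR5-1 value.

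The CCT chaperonin and the heat shock proteins had low medians, further from genes of like span than from the control. The CCT chaperonin, the ring that folds actin and tubulin, had 6 of 9 subunits lower and 1 higher, with a median of -1.78 and of -2.15 relative to span, and 8 of the 9 were lower than in shLGR5-2. Heat shock proteins of the HSP70, HSP90 and small classes had 12 of 19 lower and 4 higher (median -1.12, -1.88 relative to span). DNAJ co-chaperones had 16 of 36 lower and 13 higher (-0.60, -0.59 relative to span), and their median turned to 0.40 among members above the threshold on all 4 arrays.

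CCT8 fell from 7770.0 and 8080.3 to 763.3 and 1299.4 (log2 change -2.97 ± 0.26, adjusted p = 4.60e-04), CCT6A from 2706.4 and 2573.9 to 339.7 and 416.5 (-2.76 ± 0.14), and CCT2 from 7295.2 and 6769.3 to 1191.0 and 1229.0 (-2.52 ± 0.12). The values under shLGR5-2, such as 8339.5 and 8095.4 for CCT8, were on the control's side in each of these. CCT7 read 10537.8 and 10007.9 in shCTL and 12312.8 and 12349.8 in shLGR5-1, with no call (0.26 ± 0.11, adjusted p = 0.0744); relative to span it was called lower (-0.35).

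Among the heat shock proteins, HSP90B1, the chaperone of the endoplasmic reticulum, fell from 12871.7 and 14821.3 to 641.0 and 932.6 (log2 change -4.13 ± 0.20, adjusted p = 1.41e-04). HSPD1, the mitochondrial chaperonin, fell from 20640.5 and 20775.8 to 4872.4 and 5120.7 (-2.05 ± 0.11), and the constitutive HSPA8 from 15980.1 and 15249.6 to 8404.6 and 9472.9 (-0.81 ± 0.12). HSPB1, a small heat shock protein that binds unfolding proteins, rose from 1980.5 and 1960.3 to 8112.2 and 8193.4 (2.04 ± 0.11), and stood at 16957.4 and 19072.7 in shLGR5-2.

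Protein breakdown was mixed. The proteasome had 22 of 43 higher and 16 lower (median 0.41, -0.25 relative to span). PSMD1, a large subunit of its regulatory cap, fell from 1405.3 and 1694.0 to 148.3 and 148.2 (log2 change -3.25 ± 0.13), whereas PSMD3, of the same cap, rose from 176.3 and 221.7 to 786.2 and 741.0 (1.87 ± 0.17), and the assembly factor PSMD9 from 113.3 and 124.8 to 430.2 and 326.0 (1.53 ± 0.16). Ubiquitin-conjugating enzymes had 9 higher and 7 lower of 24 (0.20, 0.07 relative to span), ubiquitin-specific proteases 8 higher and 18 lower of 35 (-0.71, -0.35 relative to span), and cullins with F-box proteins 17 higher and 24 lower of 51 (-0.65, -0.29 relative to span). Among members above the threshold on all 4 arrays the protease median was -0.03 and that of cullins and F-box proteins turned to 0.17. UBE2N, which builds ubiquitin chains used in signalling, fell from 2075.0 and 2175.5 to 152.5 and 202.1.

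**Figure D4:**
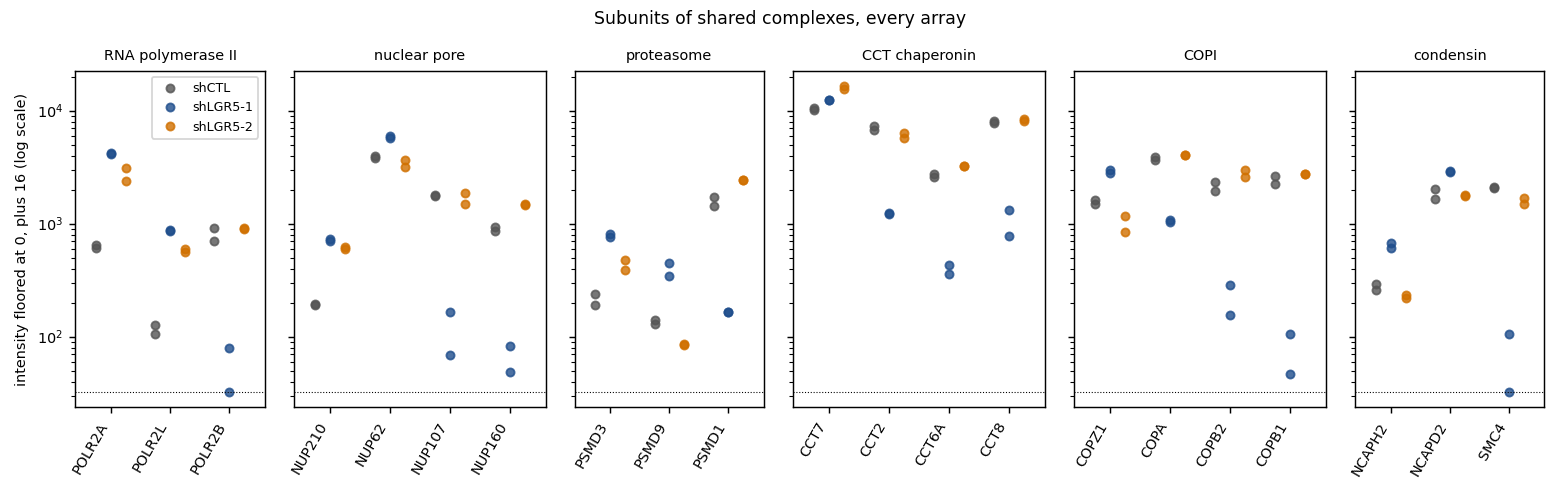
Intensity, floored at 0 and with 16 added, on a log axis for subunits of 6 complexes on every array of shCTL (grey), shLGR5-1 (blue) and shLGR5-2 (orange); the dotted line is the noise threshold on this scale. The subunits shown were picked for large changes in either direction or for brightness in shCTL. Among them, subunits of the same complex lie on both sides of the control under shLGR5-1, as POLR2A at 4218.2 and 4134.4 and POLR2B at 16.6 and 62.7 do. CCT7, the only CCT subunit shown above the control, was not called (0.26, limma adjusted p = 0.0744).

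Membrane traffic families had low medians at the Golgi. Golgins and Golgi matrix proteins, which tether vesicles, had 16 of 22 lower and 3 higher (median -1.56, -1.14 relative to span), and the exocyst, which tethers vesicles at the plasma membrane, 6 of 8 lower and 2 higher (-1.74, -1.48 relative to span). The COPI coat, which carries cargo back to the endoplasmic reticulum, had 4 of 8 lower and 3 higher (-1.13, -0.59 relative to span), and COPII and SEC proteins 18 of 35 lower and 14 higher (-0.74, -0.62 relative to span). VPS proteins and sorting nexins had 27 of 55 lower and 21 higher (-0.35, -0.32 relative to span), RAB GTPases 16 of 42 lower and 13 higher (-0.05, -0.52 relative to span), and SNARE proteins 16 of 35 lower and 14 higher (-0.17, -0.28 relative to span). Among members above the threshold on all 4 arrays the golgin median was -0.88, and those of the exocyst (0.40 over 3 genes), COPII and SEC proteins (0.42), VPS proteins and sorting nexins (0.40), RAB GTPases (0.10) and SNARE proteins (0.36) turned. The SNARE median was also above 0 among bright genes (0.27).

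COPB1 fell from 2239.3 and 2629.7 to 31.1 and 89.4 (log2 change -5.12 ± 0.39, adjusted p = 3.20e-04), COPB2 from 1943.3 and 2331.9 to 139.6 and 269.8 (-3.35 ± 0.31), and COPA from 3626.8 and 3895.9 to 1016.8 and 1069.3 (-1.83 ± 0.11). All are large subunits of the coat. COPZ1, its smallest subunit, rose from 1598.2 and 1462.2 to 2814.5 and 2958.9 (0.91 ± 0.18). GOLGA5, a golgin, fell from 842.9 and 997.9 to 27.7 and 79.5, and VPS35, the core of the retromer that returns receptors from endosomes, from 3709.9 and 3652.5 to 105.2 and 172.4. RAB10, a GTPase of secretion, fell from 3109.2 and 3658.9 to 266.8 and 377.6, while RAB1B, of transport into the Golgi, rose from 53.9 and 85.6 to 337.3 and 316.4.

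Lysosomal hydrolases and membrane proteins differed from these in direction, with 20 of 34 higher and 5 lower (median 0.70, 0.41 relative to span). IDS, which breaks down heparan sulfate, rose from 58.5 and 40.9 to 530.4 and 502.8 (log2 change 3.03 ± 0.16), and the protease CTSD from 359.3 and 351.8 to 1312.6 and 1158.1 (1.75 ± 0.12). Both were also higher than control in shLGR5-2, where IDS read 674.1 and 683.9 and CTSD 1825.6 and 1859.4. Autophagy genes had 16 of 31 higher and 12 lower, with a median of 0.53 that turned to -0.03 relative to span, and vacuolar ATPase subunits, which acidify the lysosome, 6 of 17 higher and 8 lower (-0.27, -0.20 relative to span). Within that pump, ATP6V1A, its ATP-binding subunit, fell from 1965.8 and 2021.6 to 113.3 and 148.1, and ATP6V0D1, of its membrane sector, rose from 212.7 and 271.7 to 774.6 and 895.2.

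In energy metabolism, the medians of the respiratory chain lay near the all-gene median of 0.31. The share of members called was 66.7% to 71.4%, against 75.7% of all genes tested. Complex I had 21 of 42 higher and 9 lower (median 0.42), complexes II and III 6 of 13 higher and 3 lower (0.32), complex IV 11 of 19 higher and 2 lower (0.38), and ATP synthase 9 of 18 higher and 3 lower (0.33). Each of these medians was negative relative to span, between -0.42 and -0.15. Compared directly, 29 of the 42 complex I genes and 15 of the 19 complex IV genes were higher in shLGR5-1 than in shLGR5-2. Over all genes tested, 4888 of 11524 were higher. NDUFA3 of complex I rose from 3412.7 and 3777.6 to 7867.9 and 6870.4 (log2 change 1.03 ± 0.13, but 0.27 and not called relative to span), and COX6B1 of complex IV from 6327.6 and 7707.0 to 15047.8 and 14371.0 (1.07 ± 0.14). UQCRC2, a core subunit of complex III, fell from 3037.8 and 2739.4 to 559.1 and 544.3 (-2.35 ± 0.12), and ATP5PB, of the synthase's stalk, from 9281.1 and 9563.8 to 2510.7 and 3141.3 (-1.74 ± 0.15).

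Glycolysis had 14 of 22 genes higher and 3 lower (median 0.46, 0.36 relative to span), and the tricarboxylic acid cycle 6 of 19 higher and 10 lower (-0.37, -0.40 relative to span). SLC2A1, the glucose transporter, rose from 772.8 and 685.8 to 3045.9 and 2869.8 (log2 change 2.00 ± 0.12). PKM, which makes pyruvate, rose from 2521.5 and 2650.2 to 8514.0 and 8250.1 (1.69 ± 0.11), and GPI from 2333.8 and 2180.7 to 5837.1 and 6046.6 (1.39 ± 0.13). GAPDH read 22434.1 and 21708.6 in shCTL and 21444.4 and 21617.3 in shLGR5-1, with no call. LDHB, a lactate dehydrogenase subunit, fell from 15047.8 and 14432.5 to 2679.1 and 3830.6 (-2.20 ± 0.20).

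The cycle's enzymes that fell include DLD, a subunit shared by the pyruvate and oxoglutarate dehydrogenases, from 3280.3 and 3039.9 to 174.2 and 217.6 (log2 change -3.91 ± 0.15). The cytosolic forms of 2 enzymes related to the cycle fell as well: IDH1 from 5026.3 and 4684.8 to 504.2 and 495.2 (-3.24 ± 0.11) and MDH1 from 7743.8 and 7721.2 to 1628.2 and 2320.5 (-1.98 ± 0.19). MDH2, the mitochondrial malate dehydrogenase, read 19175.1 and 18480.2 in shCTL and 22165.2 and 26667.9 in shLGR5-1, which did not pass the test (adjusted p = 0.0581).

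Biosynthetic families varied. Purine and pyrimidine synthesis had 13 of 22 higher and 5 lower (median 0.55, 0.27 relative to span), cholesterol synthesis 6 of 20 higher and 8 lower (0.03, -0.50 relative to span), and serine, glycine and one-carbon metabolism 2 of 14 higher and 7 lower (-0.45, -0.81 relative to span). NME1, a nucleoside diphosphate kinase, rose from 9799.1 and 10593.9 to 21617.3 and 19816.1. PPAT, which commits the cell's precursors to purines, fell from 924.6 and 1171.8 to 35.9 and 81.9, and in shLGR5-2 read 1366.8 and 1436.1. HMGCS1, an early enzyme of the cholesterol pathway, fell from 4750.6 and 5688.8 to 127.3 and 239.9 (log2 change -4.77 ± 0.30, adjusted p = 2.13e-04).

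Detoxifying and redox families lay on both sides of the all-gene median. Glutathione enzymes had 15 of 25 higher and 5 lower (0.66, 0.02 relative to span), and peroxiredoxins with thioredoxins 9 of 19 higher and 4 lower (0.44, -0.22 relative to span). Aldehyde dehydrogenases with aldo-keto reductases had 6 of 23 higher and 10 lower (-0.03, -0.23 relative to span), and UDP-glucuronosyltransferases with cytochromes P450 9 of 30 higher and 14 lower (-0.70, -0.51 relative to span, turning to 0.17 among members above the threshold on all 4 arrays). GPX4, which reduces lipid peroxides, rose from 9037.9 and 8972.6 to 15642.8 and 14821.3 (log2 change 0.76 ± 0.11, but 0.03 and not called relative to span). GCLC, the catalytic subunit of the first step of glutathione synthesis, fell from 1498.2 and 1503.7 to 156.1 and 117.8 (-3.32 ± 0.16), and TXNRD1, the thioredoxin reductase of the cytosol, from 2268.5 and 2664.7 to 238.6 and 258.1 (-3.23 ± 0.13).

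Solute carriers, the transporters of nutrients and ions, had 99 of 218 higher and 62 lower (median 0.40, 0.29 relative to span), and ABC transporters 11 of 24 higher and 6 lower (0.56, 0.70 relative to span). SLC7A8, an amino acid transporter, rose from 25.3 and 27.7 to 315.8 and 332.8 (adjusted p = 9.89e-05) and was higher still in shLGR5-2, at 1264.3 and 1217.2. SLC38A2, a transporter of small neutral amino acids, fell from 1249.6 and 1442.3 to 38.4 and 27.0 (-4.81 ± 0.23).

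Metallothioneins had the highest family median, 1.42, or 0.68 relative to span. They are small cysteine-rich proteins that bind zinc and copper, and their genes lie together on chromosome 16 and respond to metal through the transcription factor MTF1. Of 7 measured members, 6 were higher and 0 lower, as also at an unadjusted p below 0.05 by limma, and all 7 were higher in shLGR5-1 than in shLGR5-2. The promoters of 3 of the 7 were found in RefSeq's promoter table (GRCh38.p14), and the 250 bases upstream of the start of the 2 members with the largest rise are shown because these members moved together. Capitals mark the core of the metal response element, TGCACNC or TGCGCNC, on either strand; the letters of adjoining cores were allowed to overlap.
MT2A, chr16:56608334-56608583, plus strand: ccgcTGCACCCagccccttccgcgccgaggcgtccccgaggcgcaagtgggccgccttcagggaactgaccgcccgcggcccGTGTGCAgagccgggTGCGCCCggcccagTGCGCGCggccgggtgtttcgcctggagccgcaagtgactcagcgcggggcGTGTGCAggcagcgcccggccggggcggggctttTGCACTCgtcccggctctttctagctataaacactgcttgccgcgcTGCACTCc
MT1X, chr16:56682220-56682469, plus strand: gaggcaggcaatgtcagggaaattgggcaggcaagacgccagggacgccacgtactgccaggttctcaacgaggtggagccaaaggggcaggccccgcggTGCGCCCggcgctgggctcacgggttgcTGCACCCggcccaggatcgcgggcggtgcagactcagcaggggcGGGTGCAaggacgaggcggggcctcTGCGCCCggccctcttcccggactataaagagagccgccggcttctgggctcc
The MT2A window held 7 such cores, that of MT1X 4 and that of MT1H 8. Of 35116 RefSeq promoter windows of the same 250 bases, 24.8% held at least 1 core and 1.58% held at least 3. Among the 13364 windows of genes tested here, the shares were 31.4% and 2.14%. A match is a description of these letters and not of a bound site.

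MT2A, the most widely expressed metallothionein, rose from 528.5 and 567.6 to 3225.9 and 2999.1 (log2 change 2.47 ± 0.15, adjusted p = 2.04e-04), and read 1039.3 and 1317.6 in shLGR5-2. MT1X rose from 787.9 and 886.2 to 4106.3 and 4249.0 (2.30 ± 0.14, adjusted p = 2.02e-04), against 763.7 and 919.4 in shLGR5-2. For these members the shLGR5-2 values overlapped or exceeded the control's. For the next it lay below: MT1E rose from 4430.9 and 4491.3 to 12248.3 and 11490.3 but read 1326.0 and 1435.0 in shLGR5-2, and MT1G rose from 645.6 and 666.6 to 1975.8 and 1837.8 but read 91.4 and 53.5. MT1M and MT1H, named after their values were seen so that the family is complete, followed the same order. MT1M rose from 577.3 and 728.2 to 1585.2 and 1599.4 with both shLGR5-2 values below 0, and MT1H from 114.8 and 148.7 to 431.7 and 328.6 with shLGR5-2 at 1.9 and 3.6. MT1F read 1003.8 and 1115.3 in shCTL and 1277.5 and 1272.2 in shLGR5-1 and was not called (0.27 ± 0.12, adjusted p = 0.0972), and relative to span it was called lower (-0.46). The members are near-identical copies, so their probes may share signal.

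Small families of epithelial genes stood next. S100 proteins, calcium-binding regulators, had 7 of 10 higher and 1 lower (median 1.13, 0.62 relative to span), and keratins 5 of 9 higher and 1 lower (0.98, 0.22 relative to span). S100A11 rose from 475.8 and 426.0 to 1989.7 and 1921.8 (log2 change 2.08 ± 0.13), against 532.9 and 621.9 in shLGR5-2, and S100A13 rose from 231.3 and 198.5 to 904.9 and 905.7 (2.00 ± 0.14). S100P fell from 14210.4 and 15080.0 to 10258.0 and 9171.5 (-0.59 ± 0.12), a small fall beside its 464.6 and 470.6 in shLGR5-2. S100A6 read 11774.8 and 10789.2 in shCTL and 13170.0 on both shLGR5-1 arrays, with no call, and was called lower relative to span (-0.50).

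The keratins of simple epithelium rose together. KRT8 went from 6068.5 and 5720.4 to 12379.5 and 11275.1, its partner KRT18 from 1270.1 and 1011.8 to 2595.1 and 2638.3 (log2 change 1.20 ± 0.17), and KRT19 from 6432.1 and 6549.7 to 12497.7 and 13108.6 (0.98 ± 0.11). Relative to span, KRT18 (0.43) and KRT19 (0.22) were not called. KRT20, of differentiated gut epithelium, fell from 178.8 and 166.7 to 69.6 and 67.0 (-1.16 ± 0.11).

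**Figure D5:**
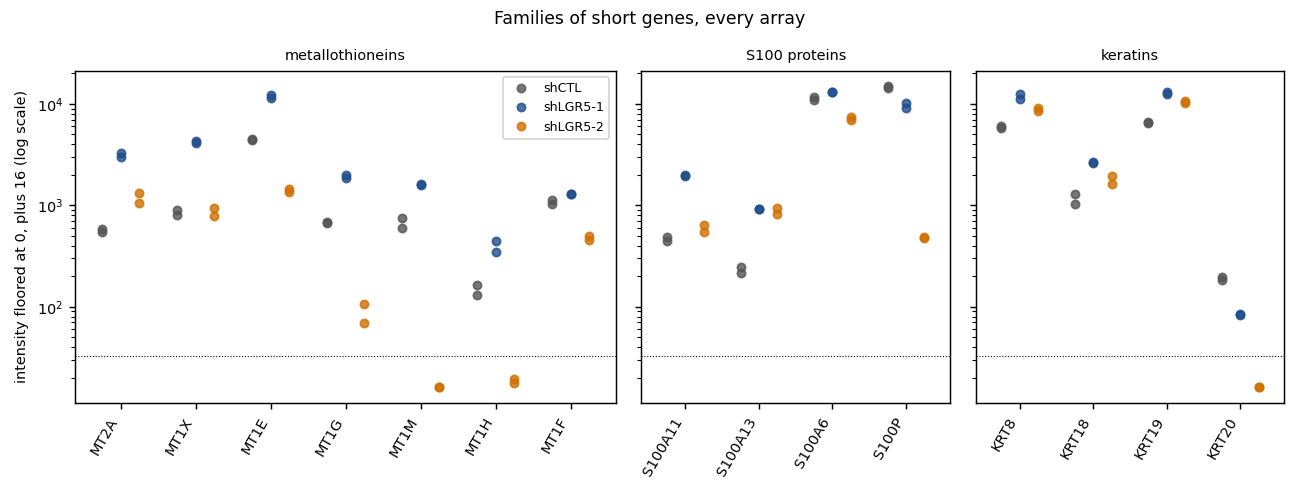
Intensity, floored at 0 and with 16 added, on a log axis for metallothioneins, S100 proteins and keratins on every array of shCTL (grey), shLGR5-1 (blue) and shLGR5-2 (orange). The 7 metallothioneins are higher in shLGR5-1 than in shLGR5-2, from 3225.9 and 2999.1 against 1039.3 and 1317.6 for MT2A to 1277.5 and 1272.2 against 487.5 and 438.3 for MT1F.

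Annexins, which bind membranes in the presence of calcium, had 5 of 9 lower and 1 higher (median -0.71, -0.46 relative to span). ANXA2 fell from 15080.0 and 14005.6 to 6482.1 and 5792.5 (log2 change -1.24 ± 0.12) and ANXA1 from 1821.3 and 1785.8 to 273.3 and 512.4 (-2.22 ± 0.29), while ANXA11 rose from 496.8 and 513.6 to 1048.6 and 1184.4 (1.12 ± 0.12). ANXA1 stood at 4982.1 and 4596.7 in shLGR5-2, above the control.

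Adhesion genes were divided within each structure. Desmosomal proteins and plakins had 8 of 13 lower and 5 higher, so that all were called (median -1.42, -0.90 relative to span), and claudins with tight junction scaffolds 12 of 20 higher and 3 lower (0.58, 0.15 relative to span). Integrins and laminins had 13 of 24 higher and 8 lower (0.73, 0.69 relative to span), and cadherins with catenins 7 of 22 higher and 6 lower (0.13, 0.24 relative to span). The desmosomal median was -0.90 among members above the threshold on all 4 arrays. The medians of integrins with laminins and of cadherins with catenins turned among bright genes, to -0.02 and -0.53, and the latter also among members above the threshold on all 4 arrays (-0.06). DSG2, the desmosomal cadherin of simple epithelium, fell from 6027.8 and 5458.4 to 206.0 and 306.2 (log2 change -4.43 ± 0.21, adjusted p = 1.34e-04), while JUP, the plakoglobin that binds its tail, rose from 482.5 and 554.0 to 2053.8 and 1772.9 (1.85 ± 0.15). PLEC, a plakin that links keratins to hemidesmosomes, rose from 64.9 and 55.3 to 363.1 and 373.4 (2.34 ± 0.14).

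The integrin beta chains showed the same division. ITGB1, the partner of most alpha chains, fell from 3333.5 and 3876.2 to 231.3 and 284.0 (log2 change -3.73 ± 0.17, adjusted p = 1.24e-04). ITGB4, the hemidesmosomal chain, rose from 139.2 and 163.8 to 753.9 and 873.4 (2.31 ± 0.14, adjusted p = 2.02e-04). Both moves were larger than any spread between replicates, and ITGB1 read 4928.7 and 4191.0 in shLGR5-2. CLDN7, an epithelial claudin, rose from 2431.9 and 2802.4 to 4379.0 and 4833.4 (0.81 ± 0.14, but 0.09 and not called relative to span). The epithelial adhesion molecule EPCAM fell from 17055.0 and 16664.6 to 11442.7 and 11113.7 (-0.58 ± 0.11).

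Mucins and CEACAM proteins had 2 of 10 higher and 4 lower (median -0.44, -0.26 relative to span, against -2.42 under shLGR5-2). Kallikreins with SPINK and SERPIN inhibitors had 11 of 21 higher and 3 lower (0.71, 0.44 relative to span). Actin filament proteins had 25 of 60 higher and 20 lower (0.30, -0.10 relative to span), and HOX genes 6 of 16 higher and 0 lower (0.14, -0.37 relative to span), with the same counts at limma's unadjusted p below 0.05. RAC2, a small GTPase best known from blood cells, rose at least 23.8-fold, from below the threshold on both arrays to 386.2 and 398.8, and read 853.9 and 887.7 in shLGR5-2. HOXB8 rose from 1386.4 and 1368.0 to 2786.6 and 3039.9, with no call relative to span (0.34).

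In signalling and cell fate, the BCL2 family of apoptosis regulators had 12 of 19 higher and 4 lower (median 0.86, 0.58 relative to span). The rises included both sides of the pathway. The death-promoting BAX rose from 99.0 and 148.4 to 558.1 and 711.9 (log2 change 2.23 ± 0.23) and BIK from 137.6 and 160.5 to 764.6 and 744.2 (2.23 ± 0.12), and the protective BCL2L1 from 2358.1 and 2327.1 to 5526.9 and 5281.0 (1.20 ± 0.12). PMAIP1, another death-promoting member, fell from 551.0 and 457.1 to 79.9 and 58.5 (-2.62 ± 0.19).

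Cyclins and cyclin-dependent kinase inhibitors had 10 of 18 lower and 4 higher (median -0.51, -0.88 relative to span). CCNG1, a cyclin induced by p53, fell from 9398.6 and 8680.0 to 826.4 and 1514.1 (log2 change -2.99 ± 0.29), and CCND3, a D-type cyclin, rose from 559.5 and 570.1 to 1676.0 and 1725.2 (1.56 ± 0.10). SOX, KLF and FOX factors had 11 of 35 higher and 12 lower (0.15, -0.39 relative to span). FOXM1, an activator of mitotic genes, rose from 285.6 and 305.7 to 1425.3 and 1397.3 (2.20 ± 0.15), while some mitotic genes named above, such as TOP2A, CEP55 and KIF11, fell. These 3 were picked for large changes or brightness, from families that held members called both ways. FOXM1's targets as a group were not tested.

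Immediate-early and ERK feedback genes had 12 of 24 higher and 1 lower (median 0.47, -0.03 relative to span). EGR1, induced within minutes by growth factors, rose from 105.1 and 77.3 to 753.4 and 800.8 (log2 change 2.90 ± 0.16), and FOSL1, a subunit of AP-1, from 81.5 and 80.0 to 622.1 and 659.7 (2.76 ± 0.14). SPRED1, a feedback inhibitor of the same pathway, was the member that fell, from 1044.8 and 1246.6 to 118.2 and 128.6. Receptor tyrosine kinases had 12 of 23 higher and 4 lower (0.72, 0.73 relative to span). MST1R, a relative of MET, rose from 37.5 and 29.7 to 217.3 and 214.6, and MET fell from 1137.6 and 1216.7 to 210.3 and 226.8.

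Genes of MHC class I antigen presentation had 12 of 16 higher and 1 lower (median 0.91, 0.40 relative to span). CALR, the calreticulin that helps load peptides, rose from 889.5 and 1045.1 to 3416.0 and 3285.4 (log2 change 1.78 ± 0.13), and TAPBP from 637.7 and 680.8 to 1619.5 and 1753.7 (1.33 ± 0.14). B2M, the light chain of every class I molecule, was the member that fell, from 1553.5 and 1585.2 to 631.0 and 704.0 (-1.22 ± 0.11). HLA genes are similar to each other and variable, and their probes may share signal. Interferon-stimulated genes had 16 of 36 higher and 9 lower (0.44, -0.03 relative to span): IFITM3, which blocks virus entry, rose from 2617.7 and 2726.6 to 5913.2 and 6443.6, and IFIT1, a sensor of foreign RNA, fell at least 10.4-fold from 192.5 and 152.1 to -1.7 and 13.7.

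SMAD and BMP/TGF-beta genes had 15 of 33 higher and 11 lower (median 0.40, 0.05 relative to span). SMAD4, the partner of all receptor-regulated SMADs, fell from 789.7 and 789.4 to 89.8 and 144.6 (log2 change -2.63 ± 0.23), and in shLGR5-2 read 890.5 and 752.1. Protein phosphatase 1 and 2A subunits had 22 of 44 higher and 15 lower (0.57, 0.06 relative to span), with the catalytic subunits PPP1CC falling from 9057.1 and 10024.1 to 1360.5 and 1576.4 and PPP2CA from 9991.2 and 9212.4 to 2907.2 and 2731.5. The 14-3-3 adaptors had 4 of 7 lower and 2 higher (-0.59, -0.72 relative to span). YWHAZ fell from 4472.0 and 5206.3 to 1509.9 and 1789.6 and stood at 10324.7 and 11615.4 in shLGR5-2, while SFN, the epithelial 14-3-3, rose from 746.3 and 683.4 to 2279.5 and 2234.1. R-spondin receptors and E3 ligases had 5 of 8 higher and 3 lower (0.92, 0.84 relative to span), and Wnt target and feedback genes 17 of 28 higher and 3 lower (0.64, 0.37 relative to span). Changes in the R-spondin family ran from -5.21 to 2.04. Its median was 1.53 among the 5 members above the threshold on all 4 arrays, a set that by construction leaves out members that fell into noise. Under shLGR5-2 the medians were -0.45 for the R-spondin family and 0.68 for Wnt target and feedback genes.

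Set directly against shLGR5-2, shLGR5-1 differed for 8642 of the genes tested, 4888 higher and 3754 lower. The control arrays do not enter this difference itself. They did enter the choice of genes and probes and the pooled spread. Genes above the threshold only in shLGR5-2 were not tested, so the split may lean toward genes higher in shLGR5-1. For the 8 families with the lowest medians under shLGR5-1, in that order, the shLGR5-2 median was -0.17 for cohesin and condensin, -0.28 for CEP proteins, 0.02 for nuclear pore proteins, 0.28 for the CCT chaperonin, -0.51 for the exocyst, -0.15 for golgins, 0.37 for karyopherins and 0.80 for desmosomal proteins and plakins. Metallothioneins, with the highest median under shLGR5-1, were at -1.68 there. Both hairpins were compared with the same control arrays, so their values against it are not independent.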

How the data were processed

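RNA from 6 LoVo samples was measured on Illumina bead arrays. GenomeStudio is named, without a version, in the submitters' processing notes. The values used are linear intensities of 47323 probes, which the authors had background-subtracted and quantile-normalized before they deposited them. The values themselves show this: on each array 30.45% to 30.55% are below 0, and the sorted arrays differ by at most 0.7. Which background method was used is not stated in the labels. Another 12 deposited columns have names that match no sample's labels and were left out.

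The noise SD, 10.0, is the root mean square of all negative values, and the threshold is 1.65 times it. Probes were named through the platform annotation, updated through RefSeq (GRCh38.p14, used for names, chromosome and span); 30113 had 1 gene, 8 several and 17202 none listed. Of the first, 15359 exceeded the threshold on both arrays of shCTL or shLGR5-1, and the brightest probe stood for each of 11524 genes. Among the 3070 genes with several kept probes, 103 had probes called in opposite directions. Values below 0 were set to 0, 16 was added, log2 was taken, and a linear model of the 3 groups was fitted to all 6 arrays with limma 3.58.1 in R 4.3.3 (lmFit, then eBayes, with 3 residual degrees of freedom and 2.073 from the prior). The fit was tested on simulated data. P-values are two-sided. The number of arrays, 2 a group, limits the precision.

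An at-least fold sets each dim value at the threshold, without the offset. The 88 families were defined by gene symbol. Named were, in each family, up to 3 called genes with the largest rise and 3 with the largest fall, both shLGR5-1 arrays on the same side of both shCTL arrays, and the 2 brightest in shCTL; some were left out. Families and rule were chosen with earlier results of these data known. No slide or scan date was given to test as a batch. Alternatives were the offset, a floor, the filter, 4 arrays only, the replicate number as a block, probe averaging, centring, span, the variance prior and leaving out each array.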

Additional observations from a re-analysis of the deposited data

Results flagged for a closer look

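A few named genes were called in opposite directions under the 2 hairpins, by at least 2-fold each, and differed in the direct limma contrast of shLGR5-1 against shLGR5-2. The log2 difference was 6.65 for MT1M (adjusted p = 2.62e-05), 4.48 for MT1G (8.90e-05), 4.39 for MT1H (6.47e-05) and 3.09 for MT1E (4.59e-05), all higher than control in shLGR5-1 and lower than control in shLGR5-2, with both arrays of each hairpin on the stated side. The log2 difference was -3.62 for ANXA1 (adjusted p = 3.12e-04) and -2.72 for YWHAZ (1.16e-04), both lower than control in shLGR5-1 and higher in shLGR5-2 on both arrays. The cause was not tested.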

How the results depend on the processing

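Leaving out each array in turn, the genes called higher ranged from 4054 to 4900 and those called lower from 3233 to 3773, and of the 142 named genes, most of them chosen for large called changes, none lost its call. Where this left a group with 1 array, that array was assumed to vary like the other groups, whose spread the fit pools. The hairpins differed for 7720 to 8315 genes when arrays were left out. LGR5 stayed lower and called in each alternative that tested it, with log2 changes from -4.14, where values under 1 were set to 1 and no offset was added, to -0.86 with an offset of 50. It was not tested when every array had to exceed the threshold or among bright genes. Requiring all 4 arrays above the threshold, which by construction removes genes that fell into noise, left 2298 genes lower against 4581 higher, so the higher share of calls went from 56.4% to 66.6%; it turned the medians of 14 families, 7 of them of at least 0.5 in size, and moved that of kinesins from -1.27 to -0.11, of CEP proteins from -1.87 to -0.56 and of karyopherins from -1.51 to -0.39. The 7 include the exocyst, COPII and SEC proteins, DNAJ co-chaperones, and the CHD, SMARC and INO80 remodellers. An alternative chosen after seeing the data kept 7815 bright genes with a mean above 100 over the 4 arrays; it gave 4060 higher and 2627 lower and turned 5 family medians, those of integrins and laminins and of the CHD, SMARC and INO80 remodellers among them. With the replicate number as a block, 4848 genes were higher and 3744 lower, and no named gene changed its call. Deviations of same-numbered arrays from their group means correlated at 0.02, 0.01 and -0.01, so no shared effect of the replicate number was seen. These values cannot tell whether same-numbered arrays were prepared together. Relative to genes of like span, the families with a median above 0 went from 45 to 31, 3729 genes were higher and 4117 lower (47.5% of calls higher), and CCT7 (-0.35), MT1F (-0.46) and S100A6 (-0.50), which were above 0 and not called in the reported fit, were called lower. CLDN7, GPX4, HOXB8, KRT18, KRT19, NDUFA3 and NUP62 lost their calls there. Without the filter, CCT7 was instead called higher (0.26, limma adjusted p = 0.0397). MDH2, not called in the reported fit, was called higher (0.37) with an offset of 50 and with all 4 arrays above the threshold (limma adjusted p = 0.0354 and 0.0417). Median centring moved the median of all genes from 0.31 to 0.42. Across 17 alternatives, named genes gave 2357 of 2385 values with the same direction and call. Levels near noise limit what can be said of dim genes, and 1069 genes were dim in shLGR5-1 and 413 in shCTL.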
